A study of Mus musculus with 24 samples.

Results

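The genes *Sox1*, *Sox2*, *Sox3*, *Sox9*, *Nes*, *Vim*, *Fabp7*, *Slc1a3* and *Prom1* mark neural stem cells and radial glia, and they were followed by name in the deposited RPKM table (read counts scaled to transcript length and to the reads of each sample) across 4 sorted groups of mouse embryonic stem cell-derived cultures. All 9 were found, of 22889 entries in the table, and each was above 0 RPKM in all 24 samples. Oculomotor neurons were made from *Islet1*-GFP/*NesEPhox2a* cells, in which the nestin enhancer drives a *Phox2a* transgene, by 5 days of embryoid body patterning with the Smoothened agonist SAG at 250 nM and FGF8 at 100 ng/ml. Spinal motor neurons came from an *Hb9*-GFP line, with SAG at 500 nM and retinoic acid at 100 nM over the same 5 days. GFP-positive and GFP-negative cells were sorted from both cultures, with 6 samples in each of the 4 groups, and poly(A) RNA was sequenced with SMART-seq2. Cell line, reporter, transgene and patterning factors changed together between the cultures and cannot be told apart. Expression of the transgene is limited to neural progenitors, the GFP-negative fraction holds whatever cells of the culture lacked GFP, and the sources name 1 line for each culture. Where the labels give only a replicate number, p-values measure the spread between these samples, which may be technical.

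Radial glia are the progenitors that line the embryonic neural tube, divide there, and give rise to neurons and later to glia. They keep SOXB1 transcription factors switched on, fill their long processes with the intermediate filaments nestin and vimentin, and carry lipid-binding, glutamate-uptake and apical membrane proteins. As a motor neuron is born it leaves the cell cycle and turns most of these genes down, and astrocytes later take several of them up again. Some of the genes are also used outside the neural lineage, *Sox2* in pluripotent cells among them.

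Estimated depth ran from 753000 to 7675000 reads per sample, and samples numbered 5 and 6 in their groups (4823000 to 7675000) were all deeper than those numbered 1 to 4 (753000 to 4642000). The sort was checked with genes of its reporters. *Isl1* was at 141 to 369 RPKM in oculomotor GFP-positive and 0.696 to 1.87 RPKM in oculomotor GFP-negative samples, without overlap. In the spinal GFP-positive samples it was at 50.4 to 123 RPKM in 5 samples and at 7.63 RPKM in sample 4. That sample also held the neuronal marker list at a sum of 113 RPKM, against 782 to 3439 RPKM in the other 5, and *Nanog*, a pluripotency factor, at 156 RPKM. *Mnx1* (Hb9), the gene of the spinal reporter, was at 43.1 RPKM there, which is above the other 5 spinal GFP-negative samples. Its partner, spinal GFP-negative sample 4, had 69.4 RPKM of *Mnx1*, against 0.189 to 4.72 RPKM in the other 5. The first thus went against its label in *Isl1* and the neuronal list but not in *Mnx1*, and the second in *Mnx1*. Leaving out the pair changed no call of the 9 genes, and values without it are given for each comparison that uses spinal samples. In spinal GFP-negative sample 2, 3 entries took 68.8% of the summed RPKM. Their share of the reads, and so how far they lower other values there, was not computed.

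Taken by their medians in RPKM, which is per length and so comparable between genes, *Vim* led the 9 in both oculomotor fractions (113 RPKM in GFP-positive and 82.7 RPKM in GFP-negative samples) and *Fabp7* led in both spinal fractions (126 and 327 RPKM). *Slc1a3* was last in every group, with medians from 0.431 to 5.48 RPKM. The ranges of neighbours in this order overlapped in all 4 groups. The 9 genes differed in how evenly they were held within a group. From the lowest to the highest oculomotor GFP-positive sample, *Sox9* varied 2.33-fold, *Sox1* 2.47-fold, *Fabp7* 36.7-fold and *Sox3* 48.8-fold. Over the spinal GFP-negative samples the same genes varied 19.0-fold, 3.59-fold, 265-fold and 1971-fold. Sample 4 held the lowest *Sox9*, *Sox1* and *Fabp7* values of that group. Without it they ran from 26.0 to 113, 3.30 to 7.16 and 31.7 to 2348 RPKM. The lowest *Sox3* value, 0.0682 RPKM in sample 6, rests on few reads.

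**Figure D1:**
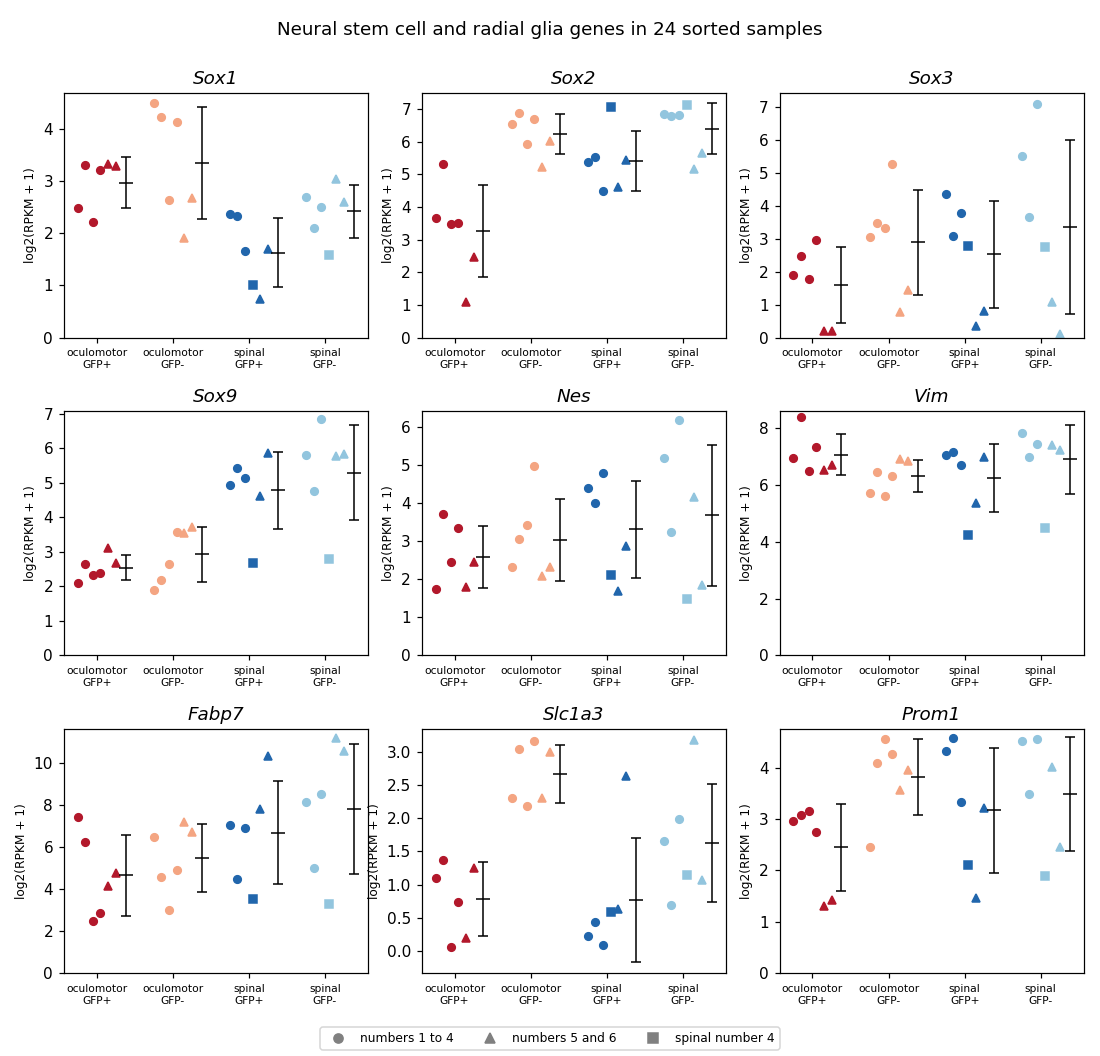
Level of each gene in each sample as log2(RPKM + 1), by sorted group. Circles are samples numbered 1 to 4, triangles samples 5 and 6, squares the spinal pair numbered 4, and the black bar beside each group is the mean with 1 SD (n = 6). *Sox2* and *Slc1a3* sat lower in oculomotor GFP-positive than in oculomotor GFP-negative samples, and *Sox9* sat higher in spinal samples except for the squares.

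The first comparison asked which of these genes differed between the sorted oculomotor neurons and the remaining cells of the same cultures. Of the 9, *Sox2* and *Slc1a3* were lower in the GFP-positive cells and 7 did not pass the test, in a limma fit of log2(RPKM + 1) over 22179 genes in which 6.15% of all genes were called and 2.34% were called lower. The median log2 difference of the 9 was -0.83, against 0 over all genes tested. In bulk samples, fewer cells that express a gene and less of its RNA per cell cannot be told apart, here and in the results that follow.

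*Sox2*, the SOXB1 factor that maintains neural stem cells and is also a core factor of pluripotency, lies on chromosome 3 (34650405 to 34652461, plus strand, 1 exon, GRCm38), inside the span of the noncoding gene *Sox2ot*. It was at 11.6, 39.2, 10.3, 10.3, 1.14 and 4.57 RPKM in oculomotor GFP-positive samples 1 to 6 and at 92.9, 118, 60.4, 103, 36.6 and 64.4 RPKM in their GFP-negative partners. The GFP-negative member was the higher one in 6 of 6 pairs, by 3.01-fold to 32.1-fold with a median of 8.99-fold, although GFP-positive sample 2 lay just above the lowest GFP-negative sample. The group means were 12.9 ± 13.5 and 79.2 ± 30.5 RPKM (SD, n = 6), a log2 difference of -2.97 (SE 0.54, 95% confidence interval -4.07 to -1.86, limma adjusted p = 0.00105). *Sox2* was called in all 34 alternative fits of this comparison (adjusted p from 2.9e-05 to 0.0186).

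*Slc1a3* encodes the glutamate transporter GLAST of radial glia and astrocytes and lies on chromosome 15 (8634124 to 8710764, minus strand). It was at 1.14, 1.59, 0.0458, 0.663, 0.147 and 1.37 RPKM in oculomotor GFP-positive samples 1 to 6 and at 3.95, 7.20, 3.52, 7.90, 3.96 and 7.0 RPKM in the GFP-negative samples. No GFP-positive sample reached the lowest GFP-negative one, a separation in this direction shared by 2.48% of the genes tested. The log2 difference was -1.88 (SE 0.43, 95% confidence interval -2.77 to -0.99, limma adjusted p = 0.00881), and it was -3.03 with an offset of 0.1 RPKM in place of 1, since these levels lie near the offset. Samples 5 and 6 alone, with 2 samples a group, gave -1.93 with a limma adjusted p = 0.291.

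The 2 genes called together in the oculomotor cultures are shown with the 250 bases before their start in RefSeq (GRCm38.p6), as is *Fabp7*, the gene with the highest median in the spinal cultures. The windows are chr3:34649745-34649994 on the plus strand for *Sox2*, chr15:8710808-8711057 on the minus strand for *Slc1a3* and chr10:57784673-57784922 on the plus strand for *Fabp7*. Each is written 5′ to 3′ in the direction of its gene, and capitals mark matches to CCAAT (other strand ATTGG) and to TGGGAA (other strand TTCCCA), the core letters of the Notch effector RBPJ.
*Sox2*: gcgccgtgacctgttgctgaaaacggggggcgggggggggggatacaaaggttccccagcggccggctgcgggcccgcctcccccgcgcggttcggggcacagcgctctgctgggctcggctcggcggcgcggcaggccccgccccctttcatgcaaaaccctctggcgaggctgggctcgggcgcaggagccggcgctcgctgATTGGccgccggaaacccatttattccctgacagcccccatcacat
*Slc1a3*: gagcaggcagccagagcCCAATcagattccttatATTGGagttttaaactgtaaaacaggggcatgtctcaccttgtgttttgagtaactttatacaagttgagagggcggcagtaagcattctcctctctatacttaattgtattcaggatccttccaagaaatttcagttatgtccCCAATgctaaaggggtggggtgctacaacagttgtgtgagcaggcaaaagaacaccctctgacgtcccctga
*Fabp7*: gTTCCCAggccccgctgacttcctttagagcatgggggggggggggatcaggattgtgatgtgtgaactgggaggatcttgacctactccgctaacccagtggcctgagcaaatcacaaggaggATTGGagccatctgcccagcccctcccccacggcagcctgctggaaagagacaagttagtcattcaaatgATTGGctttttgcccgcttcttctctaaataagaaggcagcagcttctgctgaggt
The 2 windows had little in common in base composition, with 72.0% G and C in *Sox2* and 44.8% in *Slc1a3*. CCAAT was present in both, in 6 of the 7 genes with an entry in the promoter table and in 33.8% of all 32851 promoters, and TGGGAA was present in *Fabp7* and *Prom1* and in 21.6% of all promoters. ACAATG (other strand CATTGT), the letters that SOX factors prefer, was in none of the 7 and in 10.7% of all promoters. These matches describe letters in short windows only.

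The other 2 SOXB1 factors did not pass the test between the oculomotor fractions. *Sox1*, which marks neural rather than pluripotent cells, was at 3.64 to 9.01 RPKM (median 8.49) in GFP-positive and 2.75 to 21.5 RPKM (median 10.97) in GFP-negative samples, and was higher in the GFP-negative sample in 4 of 6 pairs (log2 difference -0.38, 95% confidence interval -1.23 to 0.48, limma adjusted p = 0.773). *Sox1* shares its place on chromosome 8 (12395295 to 12400126) with the overlapping small gene *Gm25239*, on the same strand, and the noncoding gene *Sox1ot* spans it. *Sox3*, on the X chromosome (60891366 to 60893430), was at 0.140 to 6.85 RPKM (median 2.59) in GFP-positive and 0.703 to 37.3 RPKM (median 8.23) in GFP-negative samples, and was lower in the GFP-positive sample in 6 of 6 pairs, by 2.20-fold to 12.2-fold. Its log2 difference was -1.30 (SE 0.99, limma adjusted p = 0.582). With pairs of the same culture and number as a block the SE was 0.40 and *Sox3* passed the test (limma adjusted p = 0.0387).

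*Sox9*, the SOXE factor that radial glia and later astrocytes need, did not pass either, with 3.28 to 7.65 RPKM (median 4.80) in GFP-positive and 2.75 to 12.2 RPKM (median 7.96) in GFP-negative oculomotor samples (log2 difference -0.38, limma adjusted p = 0.862). *Nes*, the nestin gene, ran from 2.35 to 12.3 RPKM (median 4.47) and from 3.23 to 30.5 RPKM (median 5.70), with the GFP-negative sample higher in 4 of 6 pairs (-0.44, limma adjusted p = 0.893). The nestin enhancer also drives the *Phox2a* transgene of this line, and *Phox2a*, whose RPKM do not separate transgene and endogenous gene, was at 5.83 to 53.4 RPKM in GFP-positive and 3.09 to 6.43 RPKM in GFP-negative samples. The lowest *Phox2a* values of the sorted neurons were those of samples 5 and 6, which lay within the GFP-negative range.

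*Vim*, the vimentin gene, went the other way in sign. It was at 89.6 to 336 RPKM (median 113) in oculomotor GFP-positive and 48.2 to 120 RPKM (median 82.7) in GFP-negative samples and was higher in the GFP-positive sample in 4 of 6 pairs, all 4 of them pairs numbered 1 to 4, with a log2 difference of 0.75 (95% confidence interval -0.35 to 1.85, limma adjusted p = 0.544). *Fabp7*, the brain lipid-binding protein of radial glia, was at 4.69 to 172 RPKM (median 21.7) and 6.98 to 145 RPKM (median 59.3), so that its ranges covered each other almost fully (-0.83, limma adjusted p = 0.877). *Prom1*, the CD133 glycoprotein of apical progenitor membranes, was at 1.48 to 7.96 RPKM (median 6.27) and 4.51 to 22.4 RPKM (median 15.2), lower in the GFP-positive sample in 5 of 6 pairs. Its log2 difference of -1.36 did not pass (SE 0.55, limma adjusted p = 0.165), and with RPKM rescaled to the upper quartile of each sample it was -1.63 and passed (limma adjusted p = 0.045). Reads of *Prom1* may be shared with *Gm16401*, whose exons overlap it on the other strand.

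**Figure D2:**
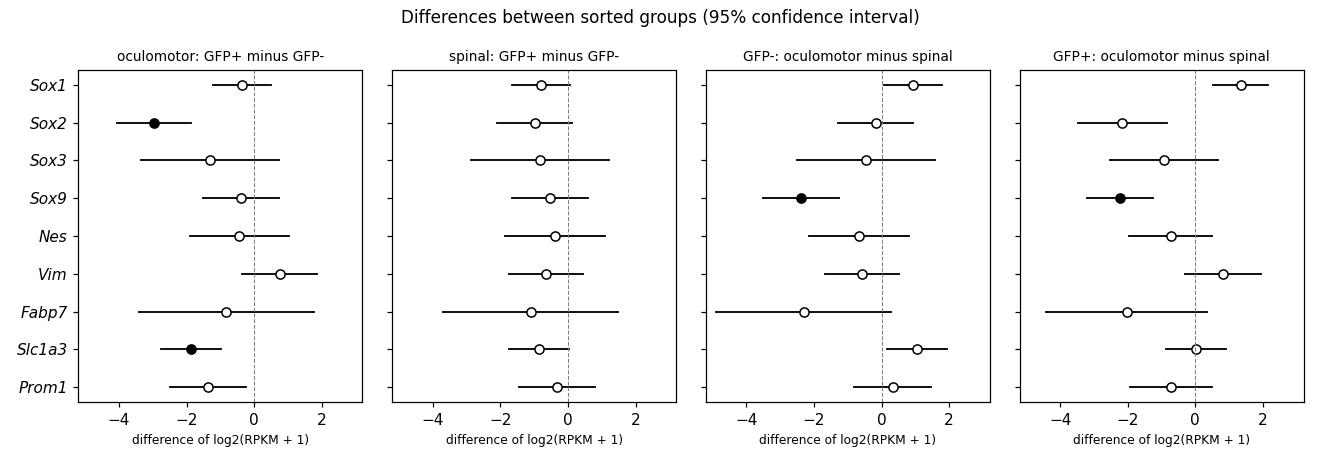
Log2 difference of each gene on the log2(RPKM + 1) scale in 4 comparisons, with 95% confidence intervals as bars. Filled points passed an adjusted p of 0.05 in limma: *Sox2* and *Slc1a3* between the oculomotor fractions, none between the spinal fractions, and *Sox9* between cultures in both fractions.

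Genes of related roles gave the setting for these values. In a list of 26 further progenitor and radial glia genes, 3 were lower in oculomotor GFP-positive cells and none higher, and the median of the list was -0.43. The 3 were *Hes1*, a Notch target that holds progenitors undifferentiated (-2.66, SE 0.61, limma adjusted p = 0.00927), *Sox21*, a SOXB2 factor (-2.16, SE 0.42, adjusted p = 0.00214), and *Phgdh*, an enzyme of serine synthesis that radial glia express (-1.92, SE 0.50, adjusted p = 0.0198). *Gja1*, the connexin 43 gene of radial glia and astrocytes, was the 1 gene called of 8 on an astroglial list with a median of -0.11 (-3.04, SE 0.48, limma adjusted p = 0.000244), from a median of 22.0 RPKM in GFP-negative to 1.57 RPKM in GFP-positive samples. *Slc1a2*, the other astroglial glutamate transporter, did not pass (1.22, limma adjusted p = 0.103) but was higher in GFP-positive samples without overlap, at 0.703 to 4.68 against 0.0266 to 0.621 RPKM. *Gfap*, the filament gene of mature astrocytes, was listed at 0 in all 6 GFP-negative samples and in 5 of 6 GFP-positive ones. Of 12 proliferation genes 6 were lower in GFP-positive cells, *Mcm5* (-2.11), *Ccnb1* (-2.11) and *Bub1* (-2.06) furthest, and of 12 neuronal genes 11 were higher, each of the 11 without overlap. Over all 22179 genes tested, 845 were called higher. The share of all genes that lay higher without overlap is not given here, for the neuronal genes or for *Slc1a2*. With both spinal samples of number 4 left out of the fit, which sets the shared spread, the proliferation count was 8.

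Pluripotency transcripts moved with the same contrast. Of 7 such genes, 5 were lower in oculomotor GFP-positive cells, *Dppa5a* (-6.96), *Tdgf1* (-4.13) and *Nanog* (-4.05) furthest, and their summed level ran from 0.315 to 265 RPKM in GFP-positive and from 725 to 9879 RPKM in GFP-negative samples, with none of the 7 at 0 in all samples of either group. The high sums were mostly *Dppa5a*, at 0 to 246 RPKM in GFP-positive and 593 to 9806 RPKM in GFP-negative samples. *Pou5f1*, the Oct4 gene, was at 0 to 1.39 RPKM and 1.29 to 49.1 RPKM. *Sox2* is expressed by such cells too, and their part in its difference was not tested. Every oculomotor GFP-negative sample held *Nanog*, at 16.5 to 85.4 RPKM. In spinal GFP-negative samples 1 and 3, *Sox2* stood at 113 RPKM in each with *Nanog* at 0.122 and 0 RPKM. Sample 3 had the lowest estimated depth of all samples (753000 reads), which limits what a value of 0 shows there. The samples with the highest *Nanog* were both spinal samples of number 4 (156 and 185 RPKM), which also had the highest *Sox2* of their groups (132 and 137 RPKM). Of the 7 genes on the endodermal list *Epcam* (-4.30) was called, and of 4 floor plate genes *Foxa2* (-2.06). The *Epcam* median was 26.4 RPKM in oculomotor GFP-negative samples, where *Sox17*, *Gata4* and *Gata6* were at 0.563, 1.01 and 1.23 RPKM. The *Epcam* call is thus not a reading of endoderm by itself. The part of endodermal and floor plate cells was not tested. Without both spinal samples of number 4 in the fit the counts were 7 of 7 pluripotency, 4 of 7 endodermal and 1 of 4 floor plate genes.

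**Figure D3:**
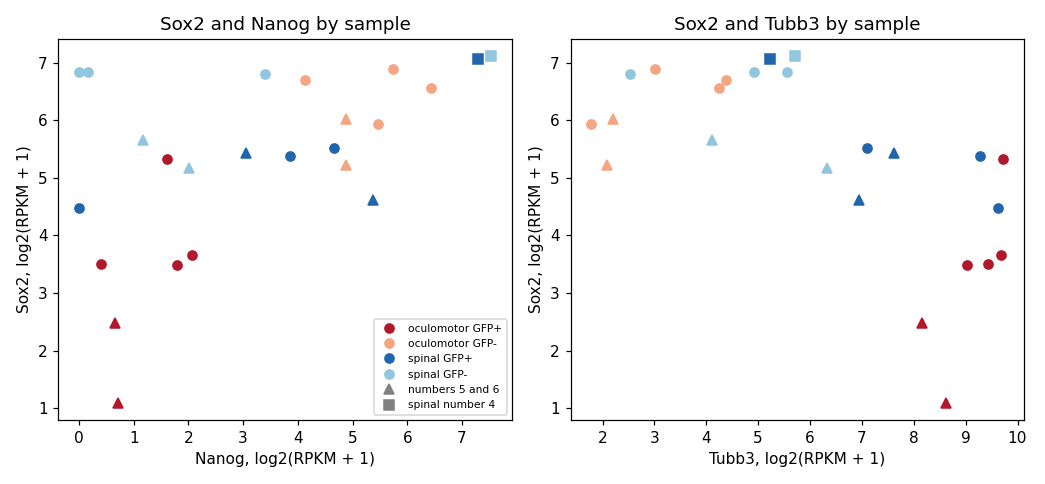
*Sox2* against the pluripotency gene *Nanog* (left) and the neuronal tubulin gene *Tubb3* (right) in each of the 24 samples, all as log2(RPKM + 1). Triangles are samples 5 and 6 and squares the spinal pair numbered 4. The oculomotor GFP-positive samples hold low *Sox2* with low *Nanog*, and all oculomotor GFP-negative samples hold *Nanog* at 16.5 RPKM or more. In 2 spinal GFP-negative samples *Sox2* is at 113 RPKM with *Nanog* at or below 0.122 RPKM, and 1 of them (sample 3) has the lowest estimated depth of the 24.

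Between the spinal fractions none of the 9 genes was called, where limma called 1.23% of all genes, and none was called without the pair numbered 4. The median log2 difference of the 9 was -0.79, against 0 over all genes. *Sox2* came to 40.6, 44.9, 21.3, 132, 23.7 and 42.4 RPKM in spinal GFP-positive samples 1 to 6 and to 113, 111, 113, 137, 35.0 and 49.7 RPKM in the GFP-negative samples. Its level was higher in the GFP-negative sample in 6 of 6 pairs, by 1.04-fold in pair 4 and by at most 5.30-fold, and the ranges overlapped (log2 difference -0.99, SE 0.54, limma adjusted p = 0.55). Leaving out pair 4 gave -1.17 (limma adjusted p = 0.366). Every spinal GFP-positive sample held *Sox2* at 21.3 RPKM or more, above 5 of the 6 oculomotor GFP-positive samples.

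*Slc1a3* was at 0.0677 to 5.19 RPKM (median 0.431) in spinal GFP-positive and 0.623 to 8.04 RPKM (median 1.68) in GFP-negative samples. The GFP-negative sample was the higher one in 5 of 6 pairs, and the exception was pair 6, whose GFP-positive sample held the 5.19 RPKM (-0.85, limma adjusted p = 0.506). *Sox1* was at 0.658 to 4.14 RPKM and 2.00 to 7.16 RPKM, higher in GFP-negative samples in 5 of 6 pairs (-0.79, 95% confidence interval -1.65 to 0.07, limma adjusted p = 0.527). *Sox3*, *Sox9*, *Nes*, *Vim*, *Fabp7* and *Prom1* had log2 differences from -1.10 to -0.32 with limma adjusted p-values from 0.753 to 0.924, and ranges that overlapped. *Nes* and *Prom1* were higher in the GFP-negative sample in 3 of 6 pairs each. For *Fabp7* the interval ran from -3.69 to 1.48 (SE 1.25), and with pairs as a block the SE of the same -1.10 was 0.58 (limma adjusted p = 0.338). Without pair 4, *Slc1a3* was at -0.91, *Sox1* at -0.83 and the other 6 between -1.37 and -0.42, with limma adjusted p-values from 0.439 to 0.834 for all 8.

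Other lists did separate the spinal fractions. Of the 12 neuronal genes 7 were higher in GFP-positive cells, and of 7 endodermal genes 5 were lower, among them *Gata6* (-3.58), *Ttr* (-3.44) and *Gata4* (-3.13). The 26 further progenitor and radial glia genes gave no call in the spinal cultures (median -0.61). Without pair 4 the counts were 8 neuronal, 5 endodermal and 1 progenitor gene, *Hes1* (-2.55, limma adjusted p = 0.0253). Of the pluripotency genes none was called there, with sums of 14.4 to 12416 RPKM in GFP-positive and 88.5 to 5976 RPKM in GFP-negative samples. These sums too were mostly *Dppa5a*, at 14.0 to 12328 RPKM and 73.0 to 5434 RPKM. The highest GFP-negative sum was that of sample 4. Without pair 4 none was called either, the GFP-negative sums ran from 88.5 to 395 RPKM, and the GFP-positive sum was the higher one in 4 of 5 pairs.

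Whether the step between fractions differed between the cultures was tested as an interaction, and none of the 9 genes passed (limma, 0.32% of all genes called). For *Sox2* the oculomotor step minus the spinal one was -1.98 (SE 0.76, 95% confidence interval -3.55 to -0.41, limma adjusted p = 0.473). With pairs of the same culture and number as a block the same difference had an SE of 0.46 and passed (limma adjusted p = 0.0465). *Vim* was at 1.40 (SE 0.75, limma adjusted p = 0.751), *Prom1* at -1.05 and *Slc1a3* at -1.02, and the other 5 lay between -0.47 and 0.41. Without pair 4 none of the 9 passed, with *Sox2* at -1.79, *Vim* at 1.48, *Slc1a3* at -0.96, *Prom1* at -0.94 and the other 5 between -0.30 and 0.54. For *Slc1a3*, called in the oculomotor cultures and not in the spinal ones, the interval of this difference ran from -2.28 to 0.23, and a difference between the cultures was not shown.

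*Sox9* was the gene of the 9 that passed the test between the cultures, although a fit of all 24 samples also called *Sox2* between GFP-positive fractions. *Sox9* lies on chromosome 11 (112782224 to 112787760, plus strand). In GFP-positive cells *Sox9* was at 3.28, 5.32, 4.07, 4.27, 7.65 and 5.39 RPKM in oculomotor samples 1 to 6 and at 29.7, 42.1, 34.2, 5.45, 23.8 and 56.7 RPKM in spinal samples 1 to 6. Spinal sample 4 was the only one within the oculomotor range. The means were 5.00 ± 1.52 and 32.0 ± 17.3 RPKM (SD, n = 6), and the log2 difference, oculomotor minus spinal, was -2.23 (SE 0.45, 95% confidence interval -3.20 to -1.27, limma adjusted p = 0.042). It was 1 of 9 called, in a fit of these 12 samples that called 0.603% of all genes and 0.249% in this direction. Without spinal sample 4 the difference was -2.65 (limma adjusted p = 0.000716) and the groups did not overlap, at 7.65 RPKM or less against 23.8 RPKM or more. The sample left out is the one that overlapped, and the share of all genes that separate without it was not counted. The call was lost when any of the other 11 samples was left out (limma adjusted p from 0.0614 to 0.0984, log2 difference from -2.35 to -2.02), so that with sample 4 included it stood close to the threshold. It was also lost with no filter (-2.23, limma adjusted p = 0.0544), with upper-quartile scaling (-2.26, adjusted p = 0.0623) and with the sample number as a block (-2.23, adjusted p = 0.0749).

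In GFP-negative cells *Sox9* was at 2.75, 3.52, 5.23, 10.9, 10.7 and 12.2 RPKM in oculomotor samples 1 to 6 and at 54.5, 26.0, 113, 5.97, 53.9 and 55.8 RPKM in spinal samples 1 to 6. Again spinal sample 4 alone reached into the oculomotor range. The log2 difference was -2.37 (SE 0.54, 95% confidence interval -3.50 to -1.25, limma adjusted p = 0.0328), 1 of 9 called where 0.96% of all genes were called and 0.55% in this direction. Without both spinal samples of number 4 it was -2.87 (limma adjusted p = 6.6e-05). The call was lost without oculomotor GFP-negative sample 1, 2 or 3 or spinal GFP-negative sample 1, 3, 5 or 6 (limma adjusted p from 0.0643 to 0.0862), and log2 differences stayed between -2.87 and -2.06 over all 24 fits that left out 1 sample.

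*Sox9* is used outside the nervous system too, in endoderm and in neural crest derivatives among other tissues. Of 7 endodermal genes, 4 were also lower in oculomotor than spinal GFP-negative cells, *Gata6* (-2.68), *Gata4* (-2.20) and *Sox17* (-1.86) furthest, with sums of 16.5 to 90.1 RPKM and 55.8 to 319 RPKM and no gene at 0 in all samples. Without both spinal samples of number 4, 5 of 7 were lower. In GFP-positive cells none of the 6 endodermal genes tested was called between the cultures and *Afp* was at 0 throughout, but the sums were 0 to 2.30 RPKM (median 1.11) and 1.42 to 58.1 RPKM (median 12.3), with 5 of 6 spinal samples above every oculomotor one. *Epcam* alone was at 0 to 55.2 RPKM (median 6.45) in these spinal samples. *Sox17*, *Gata4* and *Gata6* had medians of 0, 0.0344 and 0.127 RPKM there. Between GFP-negative fractions the *Epcam* medians were 26.4 RPKM in oculomotor and 21.4 RPKM in spinal samples, unlike the 3 genes named above. *Pdgfra*, a receptor of oligodendrocyte precursors and mesenchyme, was the 1 gene called of 5 on an oligodendrocyte lineage list between GFP-negative fractions (-1.75, limma adjusted p = 0.0489), at 0.296 to 1.27 RPKM in oculomotor and 0 to 21.9 RPKM in spinal samples. The 4 neural crest markers summed to at most 5.73 RPKM in any sample. The part of endodermal, oligodendrocyte lineage and neural crest cells in the difference was not tested.

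The remaining 8 genes were not called between cultures in either fraction. Among GFP-positive cells *Sox1* was at 3.64 to 9.01 RPKM in oculomotor and 0.658 to 4.14 RPKM in spinal samples (1.34, SE 0.37, 95% confidence interval 0.53 to 2.15, limma adjusted p = 0.164). *Sox2* went in the opposite direction, at 1.14 to 39.2 RPKM against 21.3 to 132 RPKM (-2.16, SE 0.61, 95% confidence interval -3.48 to -0.83, limma adjusted p = 0.177). A fit of all 24 samples, which shares the spread of 4 groups, called *Sox2* here (limma adjusted p = 0.037). *Fabp7* had the widest gap of means in RPKM, although *Sox9* had the larger log2 difference in both fractions with all samples in the fit. Without both spinal samples of number 4 that order was reversed. *Fabp7* was then at -2.67 against -2.65 for *Sox9* in GFP-positive and at -3.21 against -2.87 in GFP-negative cells. The *Fabp7* means were 50.1 ± 65.0 against 304 ± 499 RPKM in GFP-positive and 66.6 ± 55.0 against 760 ± 956 RPKM in GFP-negative cells (SD, n = 6), but the spread between samples was as large (log2 differences -2.03 and -2.31, limma adjusted p = 0.575 and 0.507). Between GFP-negative cells *Slc1a3* was at 3.52 to 7.90 RPKM in oculomotor and 0.623 to 8.04 RPKM in spinal samples (1.04, SE 0.43, limma adjusted p = 0.34), and *Sox1* at 2.75 to 21.5 RPKM and 2.00 to 7.16 RPKM (0.93, SE 0.42, limma adjusted p = 0.397). Without both spinal samples of number 4, *Sox1* was at 1.21, *Sox2* at -1.83 and *Fabp7* at -2.67 between GFP-positive fractions, and *Fabp7* at -3.21, *Slc1a3* at 0.95 and *Sox1* at 0.76 between GFP-negative fractions, none of them called (limma adjusted p from 0.155 to 0.427).

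Of the 26 further progenitor and radial glia genes, 2 differed between the GFP-negative fractions. *Ptprz1*, a receptor phosphatase of radial glia, was lower in oculomotor cells (-1.77, SE 0.39, limma adjusted p = 0.0272), with 0.319 to 0.747 RPKM against 0.908 to 8.40 RPKM and no overlap. *Cdk6*, a kinase of the cell cycle, was higher (1.70, SE 0.38, limma adjusted p = 0.0295), although its ranges of 3.40 to 14.1 RPKM and 0.484 to 4.07 RPKM met. *Ccnd1* was not called but lay higher in oculomotor cells without overlap, at 7.13 to 23.6 against 0.898 to 5.64 RPKM. The share of all genes that separated without overlap between these fractions is not given here. Without both spinal samples of number 4, *Ttyh1* was lower in oculomotor cells as well (-2.60, limma adjusted p = 0.00526). Between the GFP-positive fractions none of the 25 tested was called, with or without the pair.

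Within groups, part of the spread followed the sample number. *Sox3* was at 2.46 to 6.85 RPKM in oculomotor GFP-positive samples 1 to 4 and at 0.152 and 0.140 RPKM in samples 5 and 6. The same held in oculomotor GFP-negative (7.34 to 37.3 against 0.703 and 1.72 RPKM), spinal GFP-positive (5.83 to 19.7 against 0.268 and 0.757 RPKM) and spinal GFP-negative samples (5.70 to 134 against 1.10 and 0.0682 RPKM). *Sox3* was thus lower in samples 5 and 6 in all 4 groups without overlap, as were 751 of 22179 genes (3.39%), and no other member showed this in all 4 groups. *Fabp7* was higher in samples 5 and 6 in 3 of the groups: 106 and 145 against 6.98 to 89.0 RPKM in oculomotor GFP-negative, 228 and 1310 against 10.4 to 132 RPKM in spinal GFP-positive, and 1516 and 2348 against 8.85 to 370.0 RPKM in spinal GFP-negative samples, while the oculomotor GFP-positive values overlapped. The share of all genes that separated in this way in fewer than 4 groups was not counted. The values of *Fabp7*, and those of *Sox2* and *Sox9* by number below, are therefore a description only.

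The labels do not say that the numbers mark a batch, and samples 5 and 6 were also the deeper ones. The paper names different sequencing platforms and read lengths for the sorted samples, and its text does not say which samples had which. The part of any of these in the values by number was not tested. *Sox2* was lower in samples 5 and 6 in oculomotor GFP-positive (1.14 and 4.57 against 10.3 to 39.2 RPKM) and spinal GFP-negative samples (35.0 and 49.7 against 111 to 137 RPKM). *Sox9* was higher in samples 5 and 6 in oculomotor GFP-positive cells (7.65 and 5.39 against 3.28 to 5.32 RPKM) and overlapped in the other 3 groups. Its difference between cultures was -2.17 in GFP-positive samples 1 to 4 and -2.35 in samples 5 and 6, and -2.47 and -2.17 in GFP-negative samples, with no call in sets of this size (limma adjusted p from 0.0657 to 0.314).

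**Figure D4:**
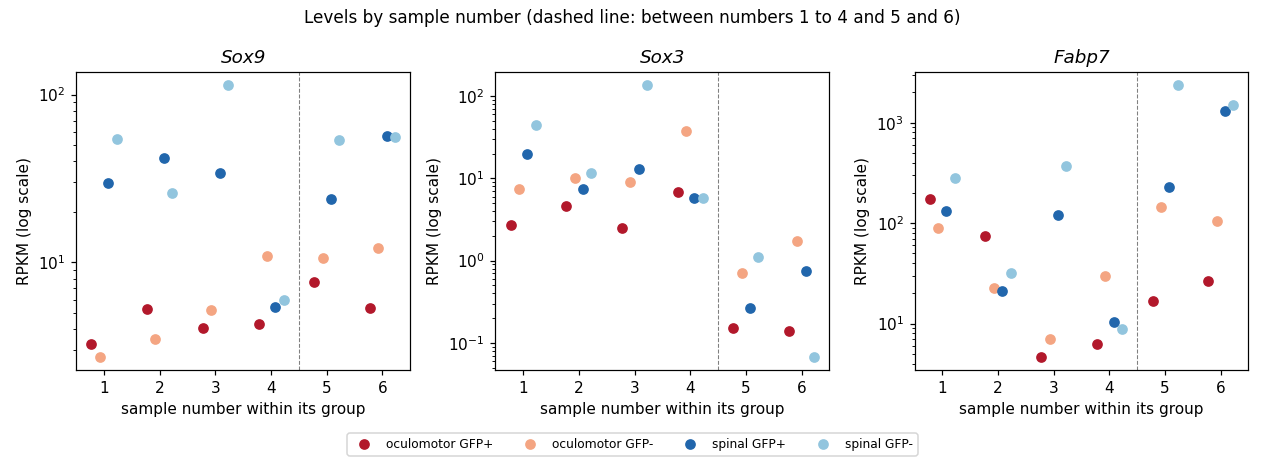
*Sox9*, *Sox3* and *Fabp7* in RPKM on a log axis by sample number, with the 4 groups in colour and a dashed line between numbers 4 and 5. *Sox3* is at 1.72 RPKM or less in samples 5 and 6 of every group, whereas *Sox9* separates the cultures at every number except 4 in both fractions.

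The genes whose pattern was most like that of the 9 were found by Pearson r of log2(RPKM + 1) with their mean profile, over 24 samples and 11942 genes with a mean of at least 1 RPKM. The samples share libraries, depth and group differences, so r is a description only. *Fgfr3*, an FGF receptor, was first (r = 0.88), followed by *Kbtbd11* (0.86), *Rfx4*, a transcription factor of the developing neural tube (0.86), *Nedd9* (0.84) and *Gdpd2* (0.84), and the other 5 of the top 10 were *Sema5b*, *L3mbtl3*, *Smad3*, *Ext1* and *Pxdn*. *Fgfr3* was at 0.219 to 3.57 RPKM in oculomotor GFP-positive, 1.54 to 13.4 RPKM in oculomotor GFP-negative, 0.831 to 10.8 RPKM in spinal GFP-positive and 3.06 to 53.1 RPKM in spinal GFP-negative samples.

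The single members pointed to different partners. *Sox2* was nearest to *Yap1*, a Hippo pathway coactivator (r = 0.89), *Ezr* (0.89) and *Mcm6*, a replication licensing factor (0.88), and *Sox1* to *Laptm4b* (0.77) and *Fgf15* (0.74). *Sox9* was nearest to *Npas3* (0.87) and *Itgb8* (0.87), *Fabp7* to the endothelin receptor *Ednrb* (0.91), *Nes* to *Dtx4* (0.92) and *Slc1a3* to *Tmem47* (0.84). Among the 9 themselves the closest pairs were *Sox3* and *Nes* (r = 0.79), *Nes* and *Prom1* (0.73) and *Sox9* and *Fabp7* (0.70), and the furthest apart were *Sox1* and *Sox9* (-0.33). Correlations among the 9 therefore ran from -0.33 to 0.79.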

How the data were processed

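SMART-seq2 libraries of 24 samples were analysed from 1 table. As deposited, the values were RPKM, which the authors had obtained with rpkmforgenes at the transcript level, and the table gives them by gene symbol. The submitters' processing notes name HISAT2 2.0.3, DESeq2 1.12.4 and mm10 (GRCm38). The gene annotation and the strand setting of the counting are not given in the sources used here. No molecular identifiers were used.

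Samples were grouped by their labels. The table has 22889 entries, 37 of them at 0 in every sample, and it holds no read counts. Depth was estimated from the steps between low RPKM of 2764 genes with 1 annotated transcript (92.4% to 96.7% of these low values were whole reads within 2.0%). A single read in a transcript of 1 kilobase was worth 0.130 to 1.33 RPKM, so that values of *Slc1a3* and of *Sox3* below about 1 RPKM rest on few reads.

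A gene entered a fit if 2 or more of its samples had a value over 0 RPKM, and fits were made with limma 3.58.1 (R 4.3.3, empirical Bayes with a mean trend) on log2(RPKM + 1), and p-values were adjusted by the Benjamini-Hochberg method over all genes, with 0.05 as the threshold. Folds on this scale understate the change of low genes. All 24 samples in 4 groups gave the comparisons between fractions, their difference, and the GFP-negative comparison, over 22179 genes. The 12 GFP-positive samples alone gave the GFP-positive comparison, over 19240 genes. The fits were tested on simulated data. Tables and figures were made with Python 3.11.15, pandas 2.3.3, numpy 2.4.6 and matplotlib 3.10.9.

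The 9 genes were named in every comparison, with up to 3 called genes of the largest change from each marker list, genes that check the sort, and the genes of highest correlation. The members and lists were chosen with earlier results of these data known. GFP-positive and GFP-negative samples with the same number within a culture were taken as pairs, since departures from each group mean went together in 6 of 6 pairs in each culture (r from 0.379 to 0.728 in oculomotor and 0.421 to 0.661 in spinal cultures, over 11952 genes). The labels give the numbers and do not say what they share.

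Alternatives were an offset of 0.1 RPKM, no filter, a filter at a mean of 1 RPKM, upper-quartile scaling, replicate blocks, samples 1 to 4 or 5 and 6 alone, all 24 samples for the GFP-positive comparison, leaving out spinal GFP-negative samples 2 and 4, and leaving out each sample. Leaving out both spinal samples of number 4 was added after seeing the data. Gene positions are from GENCODE M21 (GRCm38) and promoter sequences from RefSeq (GRCm38.p6), which matched 7 of the 9 genes (not *Sox3* and *Sox9*).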

Additional observations from a re-analysis of the deposited data

Results flagged for a closer look

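In 36 sets of 6 samples (9 genes in 4 groups), 2 had a single sample far from the other 5, and chance flags about 1 in 20 such sets. *Vim* in spinal GFP-negative sample 4 was at 21.5 RPKM, with the nearest other sample at 127 RPKM. *Slc1a3* in spinal GFP-positive sample 6 was at 5.19 RPKM, with the nearest other sample at 0.551 RPKM.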

How the results depend on the processing

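Of 1403 log2 differences of the 9 genes under alternatives, 1321 kept their direction and side of the threshold, 26 lost a call, 4 gained one and 52 changed sign, none of the 52 in a called result. The cause of these changes was not tested. Of the 9 genes, 0 were called between GFP-positive fractions with no filter, with upper-quartile scaling, with the sample number as a block, in samples 1 to 4 and in samples 5 and 6, and 2 in the fit of 24 samples. Between GFP-negative fractions 0 were called in samples 1 to 4 and in samples 5 and 6. Between oculomotor fractions 1 was called in samples 5 and 6, and with pairs as a block 1 passed for the difference between steps. Leaving out 1 sample gave 0 to 1 calls in either comparison between cultures. Across cultures, samples share only a number. With pairs as a block neither call between oculomotor fractions was lost. Over all genes, calls between oculomotor fractions went from 1364 to 2361 with the number block, 3644 with pairs as a block, 476 in samples 1 to 4 and 884 in samples 5 and 6. Between spinal fractions they went from 272 to 416, 649, 1 and 300, and for the difference between steps from 71 to 133, 453, 10 and 84. Between GFP-negative fractions calls went from 213 to 563 with the number block, 39 in samples 1 to 4 and 299 in samples 5 and 6, and between GFP-positive fractions from 116 to 73, 30 and 13, to 229 with an offset of 0.1 RPKM, 193 with the mean filter and 342 with 24 samples. Without spinal GFP-negative samples 2 and 4 the first 4 counts were 1571, 429, 263 and 421, and without both spinal samples of number 4 all 5 were 1826, 633, 228, 584 and 119. Upper-quartile scaling turned 845 higher and 519 lower calls between oculomotor fractions into 724 and 1021, and an offset of 0.1 RPKM turned 68 higher and 48 lower calls between GFP-positive fractions into 101 and 128. Signs changed as follows. *Slc1a3* between GFP-positive fractions was -0.058 with upper-quartile scaling, -0.91 in samples 5 and 6 and -0.018 without spinal samples 4. In samples 1 to 4, *Fabp7* between oculomotor fractions was 0.0096 and the *Sox1* difference between steps -0.69. In samples 5 and 6, *Sox1* was 1.02 and *Vim* -0.29 between oculomotor fractions, *Sox9* -0.17, *Nes* 0.67 and *Fabp7* -0.71 for the difference between steps, and *Sox1* -0.52, *Sox2* 0.22 and *Sox3* 0.52 between GFP-negative fractions. Without spinal GFP-negative samples 2 and 4, *Nes* was 0.60 for the difference between steps, and *Sox2* 0.10 and *Prom1* -0.073 between GFP-negative fractions. Without both spinal samples of number 4, *Nes* was 0.14 for the difference between steps. Leaving out 1 sample gave ranges across 0 between spinal fractions for *Nes* (-0.82 to 0.12) and *Prom1* (-0.64 to 0.022), for the difference between steps for *Sox3* (-1.22 to 0.18), *Sox9* (-0.28 to 0.64), *Nes* (-0.56 to 0.38) and *Fabp7* (-0.40 to 1.18), between GFP-negative fractions for *Sox2* (-0.42 to 0.021) and *Sox3* (-1.12 to 0.27), and between GFP-positive fractions for *Slc1a3* (-0.12 to 0.39). Depth limits values under about 1 RPKM, as in *Slc1a3* and *Sox3*.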
